A study of Mus musculus with 12 samples.

Results

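The genes that flank the type I collagen gene Col1a1 on mouse chromosome 11 were examined in liver RNA. They are Abcc3, Rsad1, Acsf2, Chad, Lrrc59, Eme1, Col1a1, Ppp1r9b, Pdk2 and Itga3, 10 of the 24453 genes measured. They were chosen by name, for their position between chr11:94343295-95076811 (mm10), a stretch of 733.5 kb, and with their low levels in livers with active AMPK already known. Their levels in that group are therefore given as a description, without a test. Liver mRNA of C57Bl/6J mice was sequenced in 12 libraries, 3 in each of 4 groups. L-iAMPK HFD+dox mice carried Albumin-Cre, R26-rtTA/rtTA and the transgene ColA-AMPKa1(312)/AMPKa1(312), and ate a high-fat diet with doxycycline. L-iAMPK HFD mice had the same genotype and ate the high-fat diet without doxycycline. iAMPK HFD+dox mice and iAMPK HFD mice carried R26-rtTA/rtTA and ColA-AMPKa1(312)/AMPKa1(312) without Albumin-Cre, and ate the high-fat diet with and without doxycycline. All mice thus carried the transgene and the activator, and all were fed for 8 weeks on the high-fat diet (fat gave 45% of calories). The labels mark AMPK as active in L-iAMPK HFD+dox livers and as inactive in the other 3 groups. Every comparison is therefore between transgenic mice. Albumin-Cre is a driver for hepatocytes, and its activity in other cells of the liver was not tested here. The labels used here give no age, and do not say that the libraries of a group came from separate mice, so p-values measure only the spread between these libraries, which may be technical.

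AMPK is a kinase that senses a fall in cellular energy and turns down biosynthesis. A tetracycline-controlled transgene is silent until the rtTA activator binds doxycycline, and a Cre driver can restrict where the activator is made. Neighbouring genes on a chromosome are usually regulated apart from each other, each from its own promoter, but can share the chromatin and the enhancers of the stretch they lie in. The Col1a1 locus is widely used in mice as a landing site for tetracycline-controlled transgenes. The labels write ColA and do not spell it out, and where the transgene lies was not tested here.

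In order of coordinate, Abcc3 (chr11:94343295-94392976, minus strand), Rsad1 (chr11:94539798-94549207, minus strand), Acsf2 (chr11:94557102-94601786, minus strand), Chad (chr11:94565074-94569127, plus strand), Lrrc59 (chr11:94629824-94645216, plus strand) and Eme1 (chr11:94645002-94653754, minus strand) lie below Col1a1 (chr11:94936224-94953042, plus strand). Ppp1r9b (chr11:94991212-95006898, plus strand), Pdk2 (chr11:95026258-95041371, minus strand) and Itga3 (chr11:95044475-95076811, minus strand) lie above it. Abcc3 is the farthest, 543.2 kb from Col1a1, and Ppp1r9b the nearest, 38.2 kb from it. Chad lies inside the body of Acsf2 on the opposite strand, with 0 bases of exon shared. In GENCODE vM21 Lrrc59 and Eme1 meet tail to tail and share 221 bases of exon, and Eme1 shares 75 bases with the first part of its other neighbour, Mrpl27. In the deposited coordinates Lrrc59 and Eme1 overlap too, but 37 bases lie between Eme1 and Mrpl27. No source used here says whether the counting used strand, so reads from the bases that Lrrc59 and Eme1 share cannot be assigned to 1 gene.

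The sequence before the start of 4 of the genes with the deepest differences is shown, so that their promoters can be set side by side. RefSeq promoter windows (GRCm38.p6) of 300 bases were matched for 8 of the 10 genes, all but Abcc3 and Col1a1. Each line runs 5′ to 3′ in the direction of the gene and stops where the first annotated transcript begins. Capitals mark every match, on either strand, to the TATA box (TATAAA), to the CCAAT box (by these letters), to the GC box (GGGCGG), to the nuclear receptor half-site (AGGTCA) and to the E-box (CACGTG).
Acsf2, chr11:94601872-94602036, minus strand: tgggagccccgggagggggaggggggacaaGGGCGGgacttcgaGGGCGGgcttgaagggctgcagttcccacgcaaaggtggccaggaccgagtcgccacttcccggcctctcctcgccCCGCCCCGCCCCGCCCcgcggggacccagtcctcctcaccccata
Rsad1, chr11:94549256-94549457, minus strand: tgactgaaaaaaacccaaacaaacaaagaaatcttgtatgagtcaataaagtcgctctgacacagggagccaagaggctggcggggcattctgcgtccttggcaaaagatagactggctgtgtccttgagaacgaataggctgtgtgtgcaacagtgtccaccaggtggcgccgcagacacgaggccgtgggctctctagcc
Chad, chr11:94564797-94565046, plus strand: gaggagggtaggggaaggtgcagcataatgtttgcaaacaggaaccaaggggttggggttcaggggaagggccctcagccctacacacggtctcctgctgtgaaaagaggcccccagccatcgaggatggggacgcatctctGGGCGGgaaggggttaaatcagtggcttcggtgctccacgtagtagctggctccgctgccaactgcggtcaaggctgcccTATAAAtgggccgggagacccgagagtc
Pdk2, chr11:95041372-95041621, minus strand: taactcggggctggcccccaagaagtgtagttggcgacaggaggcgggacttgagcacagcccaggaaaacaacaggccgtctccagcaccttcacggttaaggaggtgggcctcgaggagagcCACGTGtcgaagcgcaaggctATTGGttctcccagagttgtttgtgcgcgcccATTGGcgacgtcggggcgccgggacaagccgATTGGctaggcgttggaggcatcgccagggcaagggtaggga

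No motif was common to the 4 sequences. Acsf2 held 5 matches to the GC box, 3 of them overlapping on the opposite strand, and 11714 of all 32851 promoter windows (35.7%) held at least 1. Chad held 1 TATA box, 28 bases before its start, found in 13.6% of all windows, and 1 GC box. Pdk2 held 3 CCAAT boxes on the opposite strand, a motif found in 37.4% of all windows, and 1 E-box, found in 7.2%. Rsad1 held 1 nuclear receptor half-site 28 bases before its start, past the end of the stretch shown, and 16.3% of all windows held that motif. Across the 8 windows the GC box occurred in 3 (Acsf2, Chad, Itga3), the half-site in 2 (Rsad1, Lrrc59), the E-box in 2 (Eme1, Pdk2), the CCAAT box in 1 and the TATA box in 1. A match describes the letters and shows no binding. G and C made up 58.0% to 77.3% of the 8 windows, against a median of 52.7% over all windows.

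Whole reads were used from 11 libraries, all but iAMPK HFD+dox replicate 2, and 13569437 to 20696899 reads lay in genes. Prkaa1, the gene of the AMPK α1 subunit that the transgene encodes, averaged 1071 ± 170 FPKM in L-iAMPK HFD+dox, 3.51 ± 0.343 in L-iAMPK HFD, 2.85 ± 0.214 in iAMPK HFD+dox and 3.34 ± 0.749 FPKM in iAMPK HFD (SD, n = 3 each). The 9 hepatocyte markers found in the tables summed to 60520 to 70444 FPKM in L-iAMPK HFD+dox, 60721 to 65187 in L-iAMPK HFD, 57313 to 65256 in iAMPK HFD+dox and 57143 to 64876 in iAMPK HFD, sums that overlapped between groups. For doxycycline in L-iAMPK 5 of the 9 rose and 0 fell, where 4.76% of all genes tested rose and 21.1% fell. The 5 became 3 without L-iAMPK HFD replicate 1 and 2 without its replicate 2. The 4 adipose markers stayed under 0.5 FPKM in every library and the 4 skeletal muscle markers summed to at most 1.7 FPKM, reached in iAMPK HFD+dox. The 4 pancreas markers summed to 18.8 to 22.5 FPKM in L-iAMPK HFD+dox, 6.78 to 10.01 FPKM in L-iAMPK HFD, 12.7 to 23.7 in iAMPK HFD+dox and 14.5 to 29.9 FPKM in iAMPK HFD, with 3 of them (Prss2, Ctrb1 and Pnlip) under 0.5 FPKM in every library and the fourth, Cela1, rising for doxycycline in L-iAMPK. Genes were tested with limma on log2(FPKM + 0.5), with Benjamini-Hochberg adjustment over the 12614 genes that passed a filter on low values, and a gene is called, and described as rising or falling, at an adjusted p under 0.05. The tests were for doxycycline in L-iAMPK (L-iAMPK HFD+dox minus L-iAMPK HFD), genotypes on doxycycline (L-iAMPK HFD+dox minus iAMPK HFD+dox), the interaction of genotype and doxycycline, doxycycline in iAMPK and genotypes without doxycycline. All 10 genes passed the filter.

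Levels of the 10 genes were low in livers with active AMPK. In 8 of them (all but Ppp1r9b and Itga3) each of the 3 L-iAMPK HFD+dox libraries lay below all 9 other libraries, an arrangement seen in 12.2% of all genes tested. For doxycycline in L-iAMPK all 10 log2 differences were negative, and all 10 had groups that did not overlap, as 34.9% of all genes did in that direction. For genotypes on doxycycline all 10 were negative and 8 were lower without overlap, where 23.4% of all genes were. For the interaction all 10 were negative. The genes were chosen for these values, so nothing is read from those counts. The median log2 difference of the 10 genes was -1.63 for doxycycline in L-iAMPK and -1.31 for genotypes on doxycycline, beside -0.13 and -0.08 over all genes tested. These comparisons share the L-iAMPK HFD+dox libraries.

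**Figure D1:**
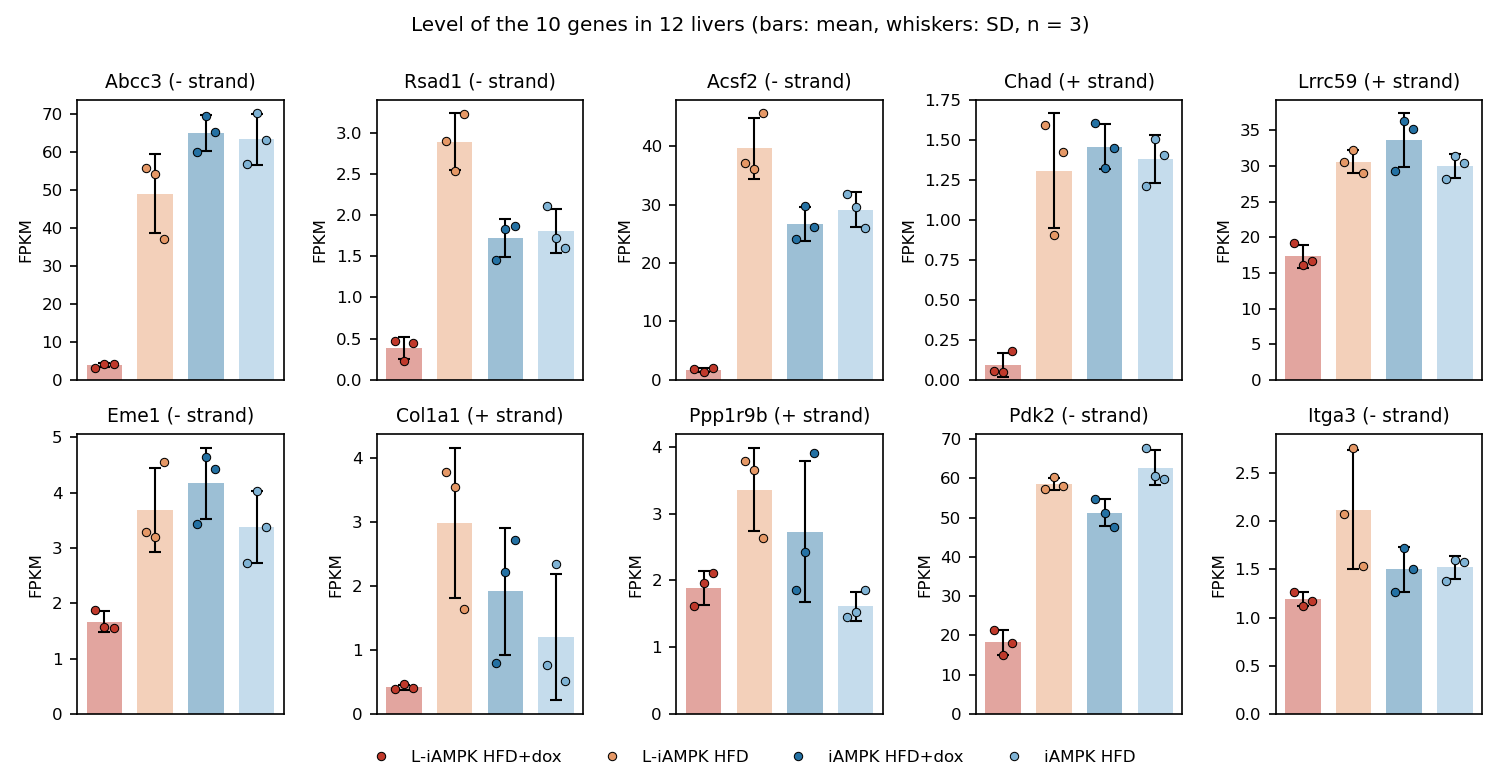
FPKM of the 10 genes in order of position, 1 panel a gene, in L-iAMPK HFD+dox, L-iAMPK HFD, iAMPK HFD+dox and iAMPK HFD from left to right. Bars are means, whiskers SD and points the 3 libraries of a group. The L-iAMPK HFD+dox points of Abcc3 (3.19 to 4.15 FPKM) and Acsf2 (1.35 to 2.02 FPKM) sit close to 0, while those of Ppp1r9b and Itga3 overlap with points of other groups.

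Acsf2 and Abcc3, at the far end of the stretch, were the 2 genes with log2(FPKM + 0.5) differences of -3 or lower. Chad, whose level was much lower in all groups, reached a similar percentage of its L-iAMPK HFD mean (7.25%, beside 4.37% for Acsf2 and 7.76% for Abcc3). Acsf2 encodes an acyl-CoA synthetase of mitochondria, which joins fatty acids to coenzyme A. It had 1.82, 1.35 and 2.02 FPKM in L-iAMPK HFD+dox, 37.2, 36.0 and 45.6 FPKM in L-iAMPK HFD, 24.1, 29.8 and 26.2 in iAMPK HFD+dox and 31.9, 29.6 and 25.9 in iAMPK HFD. All 3 L-iAMPK HFD+dox libraries were far below the other 9, which spanned 24.1 to 45.6 FPKM. Its mean in L-iAMPK HFD+dox was 1.73 ± 0.341 FPKM, 4.37% of the 39.6 ± 5.23 FPKM in L-iAMPK HFD (SD, n = 3 each). The log2 difference was -4.17 ± 0.13 (SE) for doxycycline in L-iAMPK and -3.62 ± 0.13 for genotypes on doxycycline. A log2 difference of -3 or lower occurred in 9 of the 12614 genes (0.0713%) for doxycycline in L-iAMPK and in 12 (0.0951%) for genotypes on doxycycline. The values rest on 350 reads over the 3 L-iAMPK HFD+dox libraries and 7946 reads over the 3 L-iAMPK HFD libraries. The authors' deposited table gives Acsf2 a log2 fold change of -4.35 between the same groups. Among the other 3 groups Acsf2 was highest in L-iAMPK HFD, above iAMPK HFD in all 3 libraries, and iAMPK HFD and iAMPK HFD+dox overlapped.

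Abcc3 encodes an ABC transporter of the basolateral membrane of hepatocytes, which exports bile salts and glucuronides to the blood. It had 3.19, 4.15 and 4.04 FPKM in L-iAMPK HFD+dox, 55.7, 54.0 and 36.9 FPKM in L-iAMPK HFD, 60.0, 69.4 and 65.3 in iAMPK HFD+dox and 56.7, 70.1 and 63.1 in iAMPK HFD. The 3 L-iAMPK HFD+dox libraries again lay apart from the other 9, and the lowest of those 9 was L-iAMPK HFD replicate 3. The mean in L-iAMPK HFD+dox was 3.79 ± 0.521 FPKM, 7.76% of the 48.9 ± 10.4 FPKM in L-iAMPK HFD. The log2 difference was -3.51 ± 0.15 (SE) for doxycycline in L-iAMPK and -3.93 ± 0.15 for genotypes on doxycycline. Acsf2 was therefore the lower of the pair against L-iAMPK HFD and Abcc3 the lower against iAMPK HFD+dox, since L-iAMPK HFD stood above iAMPK HFD+dox for Acsf2 and below it for Abcc3. Over the 12 libraries, the patterns of Abcc3 and Acsf2, each centred on its own mean, differed by a root mean square of 0.46 on the log2 scale.

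Of 10306 genes outside 1 Mb of Col1a1 with a mean of at least 1 FPKM, those closest to Abcc3 over the 12 libraries were Ces1g, Adora1 and Cyp4a14, at a root mean square log2 difference of 0.41, 0.47 and 0.67. Those closest to Acsf2 were Ces1g, Adora1 and Mybph, at 0.52, 0.62 and 0.80. Ces1g is a liver carboxylesterase, whose reads its close relatives may share, and Adora1 an adenosine receptor. Ces1g had 3.45 to 4.47 FPKM in L-iAMPK HFD+dox, 50.4 to 89.4 FPKM in L-iAMPK HFD, 90.6 to 110 FPKM in iAMPK HFD+dox and 101 to 106 FPKM in iAMPK HFD. These genes were picked for the likeness, so it is not a test.

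Rsad1, next to the 3′ end of Acsf2, and Chad, inside it, were low in all groups. Rsad1 encodes a radical SAM protein that binds haem. It had 0.471, 0.234 and 0.447 FPKM in L-iAMPK HFD+dox, 2.90, 2.54 and 3.23 FPKM in L-iAMPK HFD, 1.46, 1.83 and 1.87 in iAMPK HFD+dox and 2.11, 1.72 and 1.60 in iAMPK HFD. Every L-iAMPK HFD+dox library was under every other library, and every L-iAMPK HFD library was above all the rest. The mean in L-iAMPK HFD+dox was 0.384 ± 0.13 FPKM, 13.3% of the 2.89 ± 0.346 FPKM in L-iAMPK HFD (SD, n = 3 each), on 105 reads and 787 reads. The log2 difference was -1.94 ± 0.14 (SE) for doxycycline in L-iAMPK and -1.33 ± 0.14 for genotypes on doxycycline.

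Chad encodes chondroadherin, a small leucine-rich repeat protein of cartilage matrix. It had 0.054, 0.049 and 0.182 FPKM in L-iAMPK HFD+dox, 1.60, 0.908 and 1.43 FPKM in L-iAMPK HFD, 1.61, 1.33 and 1.45 in iAMPK HFD+dox and 1.21, 1.51 and 1.41 in iAMPK HFD. The 9 libraries without active AMPK overlapped from group to group, and the 3 with it lay below them. Only 10 reads stood behind the L-iAMPK HFD+dox values and 142 behind those of L-iAMPK HFD. On the log2(FPKM + 0.5) scale the difference was -1.59 ± 0.16 (SE) for doxycycline in L-iAMPK and -1.73 ± 0.16 for genotypes on doxycycline, and that scale understates the change of low genes. With edgeR on recovered reads it was -3.63 for doxycycline in L-iAMPK and -3.94 for genotypes on doxycycline. All edgeR results with iAMPK HFD+dox rest on 2 of its 3 libraries. The edgeR value of Rsad1 for genotypes on doxycycline was -2.04. In the authors' deposited table Chad has a log2 fold change of -3.62 and Abcc3 one of -3.51 between L-iAMPK HFD+dox and L-iAMPK HFD.

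Pdk2 encodes a kinase that switches off the pyruvate dehydrogenase complex and so holds back the burning of glucose. It was, with Abcc3, among the 2 most abundant of the 10 genes in the groups without active AMPK. It had 21.5, 14.9 and 18.2 FPKM in L-iAMPK HFD+dox, 57.3, 60.2 and 58.1 FPKM in L-iAMPK HFD, 54.6, 51.3 and 47.7 in iAMPK HFD+dox and 67.8, 60.5 and 59.9 in iAMPK HFD. The L-iAMPK HFD+dox libraries were all below the others. L-iAMPK HFD and iAMPK HFD overlapped, and iAMPK HFD+dox lay below both. The mean in L-iAMPK HFD+dox was 18.2 ± 3.29 FPKM, 31.1% of the 58.5 ± 1.51 FPKM in L-iAMPK HFD (SD, n = 3 each), and the log2 difference was -1.67 ± 0.11 (SE) for doxycycline in L-iAMPK and -1.48 ± 0.11 for genotypes on doxycycline. Pdk2 lies 73.2 kb from Col1a1. Its nearest neighbour, Samd14, ends 171 bases away on the other strand, was under the filter on low values, and averaged 0.135 ± 0.0462 FPKM in L-iAMPK HFD+dox, 25.7% of the 0.525 ± 0.0773 FPKM in L-iAMPK HFD (SD, n = 3 each). Samd14 was named after its values were seen.

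Lrrc59 and Eme1 stand between Acsf2 and Col1a1, 291.0 and 282.5 kb from Col1a1. Lrrc59 encodes a leucine-rich repeat protein of the endoplasmic reticulum that binds ribosomes. It had 16.1 to 19.2 FPKM in L-iAMPK HFD+dox, 29.0 to 32.3 in L-iAMPK HFD, 29.3 to 36.3 in iAMPK HFD+dox and 28.2 to 31.4 in iAMPK HFD. Eme1 encodes a partner of the Mus81 nuclease, which cuts branched DNA. It had 1.56 to 1.88 FPKM in L-iAMPK HFD+dox, 3.19 to 4.56 in L-iAMPK HFD, 3.44 to 4.64 in iAMPK HFD+dox and 2.73 to 4.03 in iAMPK HFD. Both were lower in the 3 L-iAMPK HFD+dox libraries than in the other 9, and the other 3 groups overlapped for both. The L-iAMPK HFD+dox mean was 56.6% of the L-iAMPK HFD mean for Lrrc59 and 45.3% for Eme1. The log2 difference for doxycycline in L-iAMPK was -0.80 ± 0.09 (SE) for Lrrc59 and -0.94 ± 0.16 for Eme1.

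Col1a1 encodes the α1 chain of type I collagen, the main fibre of scar tissue, made in liver by stellate cells and fibroblasts rather than by hepatocytes. It had 0.392, 0.468 and 0.400 FPKM in L-iAMPK HFD+dox, 3.78, 3.56 and 1.64 FPKM in L-iAMPK HFD, 0.806, 2.22 and 2.72 in iAMPK HFD+dox and 0.769, 2.34 and 0.522 in iAMPK HFD. The L-iAMPK HFD+dox libraries were the 3 lowest, though the highest of them, at 0.468 FPKM, was close to iAMPK HFD replicate 3, at 0.522 FPKM. The other 3 groups overlapped and were spread widely, and the 2.34 FPKM of iAMPK HFD replicate 2 stood apart from the other 2 libraries of that group. The mean in L-iAMPK HFD+dox was 0.42 ± 0.0418 FPKM, 14.0% of the 2.99 ± 1.18 FPKM in L-iAMPK HFD (SD, n = 3 each). The log2 difference was -1.86 ± 0.43 (SE) for doxycycline in L-iAMPK and -1.29 ± 0.43 for genotypes on doxycycline, the largest standard errors among the 10 genes, and -1.96 for genotypes on doxycycline with edgeR.

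The gene whose pattern was closest to Col1a1 over the 12 libraries was Col1a2, at a root mean square log2 difference of 0.17, followed by Osbpl3 and Haus8, both at 0.22. Col1a2 encodes the other chain of type I collagen, lies outside 1 Mb of Col1a1 and is one of 10306 genes that were compared with it. Col1a2 had 1.74, 1.68 and 1.57 FPKM in L-iAMPK HFD+dox, 8.54, 8.99 and 4.49 FPKM in L-iAMPK HFD, 2.47, 5.34 and 8.53 in iAMPK HFD+dox and 2.62, 5.73 and 2.79 in iAMPK HFD. The same libraries were high for both chains, namely L-iAMPK HFD replicates 1 and 2, iAMPK HFD+dox replicate 3 and, within its group, iAMPK HFD replicate 2. The log2 difference of Col1a2 for doxycycline in L-iAMPK was -1.80 ± 0.41 (SE), beside the -1.86 ± 0.43 of Col1a1. The other 9 genes of the stretch differed from Col1a1 by a root mean square of 0.56 (Rsad1) to 1.26 (Abcc3). Markers of stellate cells and fibroblasts, a list that holds Col1a2 and Col3a1, were compared too. The 12 markers summed to 105 to 130 FPKM in L-iAMPK HFD+dox and 152 to 219 in L-iAMPK HFD. In iAMPK HFD+dox they summed to 118 to 197 FPKM and in iAMPK HFD to 127 to 162. The L-iAMPK HFD+dox sums lay below those of L-iAMPK HFD and overlapped with both iAMPK groups. None of the 12 was under 0.5 FPKM in all libraries. For doxycycline in L-iAMPK 8 of them fell, where 21.1% of all genes did (limma, adjusted p under 0.05). For genotypes on doxycycline 3 fell, where 10.3% of all genes did. Without L-iAMPK HFD replicate 1 or 2 the 8 became 3, and without L-iAMPK HFD+dox replicate 1, 2 or 3 they became 4, 4 and 5. For genotypes on doxycycline the 3 became 1 to 7 on leaving out a library. Markers of other cell types were compared for doxycycline in L-iAMPK as well. The 8 endothelial markers summed to 78.5 to 98.2 FPKM in L-iAMPK HFD+dox and 99.0 to 114 FPKM in L-iAMPK HFD, and 5 of them fell for doxycycline in L-iAMPK, which became 2 on leaving out replicate 1 or 2 of L-iAMPK HFD, and likewise of L-iAMPK HFD+dox. The 7 cholangiocyte markers, of which Cftr was under 0.5 FPKM in all libraries, summed to 18.2 to 23.0 FPKM in L-iAMPK HFD+dox and 38.6 to 156 FPKM in L-iAMPK HFD, and 1 of the 6 tested fell. The 8 macrophage markers summed to 140 to 271 FPKM in L-iAMPK HFD+dox and 230 to 277 FPKM in L-iAMPK HFD, which overlapped. In iAMPK HFD+dox the endothelial, cholangiocyte and macrophage sums were 101 to 111, 27.8 to 182 and 174 to 349 FPKM. In iAMPK HFD they were 84.1 to 103, 29.7 to 64.6 and 132 to 194 FPKM. For genotypes on doxycycline 1 endothelial marker fell (0 to 4 on leaving out a library), and 0 cholangiocyte and 0 macrophage markers were called. In whole liver, fewer cells of a type and less RNA per cell cannot be told apart, and the part of any of these cells in the level of Col1a1 was not tested.

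**Figure D2:**
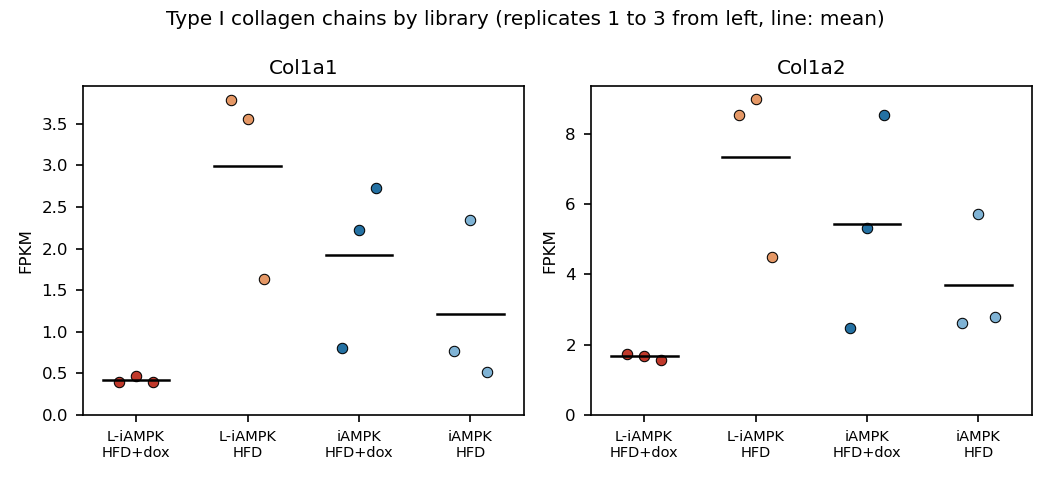
FPKM of Col1a1 (left) and Col1a2 (right) in each library of L-iAMPK HFD+dox, L-iAMPK HFD, iAMPK HFD+dox and iAMPK HFD, with a line at the mean. The L-iAMPK HFD+dox libraries lie at 0.392 to 0.468 FPKM for Col1a1 and at 1.57 to 1.74 FPKM for Col1a2, and iAMPK HFD replicate 2 is the highest of its group for both.

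On the log2(FPKM + 0.5) scale Ppp1r9b and Itga3 showed the smallest differences of the 10 genes, and neither was below all other libraries. As a percentage of the L-iAMPK HFD mean, Ppp1r9b (56.3%) and Itga3 (56.0%) were close to Lrrc59 (56.6%), since that scale understates the change of low genes. Ppp1r9b encodes spinophilin, a scaffold that directs protein phosphatase 1. It had 1.61, 1.96 and 2.11 FPKM in L-iAMPK HFD+dox, 3.79, 3.66 and 2.64 FPKM in L-iAMPK HFD, 1.85, 2.42 and 3.91 in iAMPK HFD+dox and 1.45, 1.53 and 1.86 in iAMPK HFD. L-iAMPK HFD+dox was below L-iAMPK HFD in every library and overlapped with both iAMPK groups, and the lowest mean was that of iAMPK HFD. The log2 difference was -0.68 ± 0.21 (SE) for doxycycline in L-iAMPK and -0.39 ± 0.21 for genotypes on doxycycline, which became -0.59 without iAMPK HFD+dox replicate 1 and -0.14 without its replicate 3. Itga3 encodes the integrin α3 subunit, a receptor for laminin. It had 1.12 to 1.27 FPKM in L-iAMPK HFD+dox, 1.54 to 2.76 in L-iAMPK HFD, 1.26 to 1.72 in iAMPK HFD+dox and 1.38 to 1.59 in iAMPK HFD. Its highest L-iAMPK HFD+dox library overlapped with iAMPK HFD+dox replicate 1, and the log2 difference was -0.61 ± 0.16 for doxycycline in L-iAMPK and -0.23 ± 0.16 for genotypes on doxycycline, which became -0.15 without iAMPK HFD+dox replicate 2 and -0.14 with edgeR.

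The size of the difference did not change steadily with distance from Col1a1. On the side of lower coordinates, the log2 differences for doxycycline in L-iAMPK were -3.51 for Abcc3 at 543.2 kb, -1.94 for Rsad1 at 387.0 kb and -1.59 for Chad at 367.1 kb. Nearer to Col1a1 they were -4.17 for Acsf2 at 334.4 kb, -0.80 for Lrrc59 at 291.0 kb and -0.94 for Eme1 at 282.5 kb. Lrrc59 and Eme1, the nearest of that side, thus differed less than the genes farther out. On the other side the log2 differences were -0.68 for Ppp1r9b at 38.2 kb, -1.67 for Pdk2 at 73.2 kb and -0.61 for Itga3 at 91.4 kb. Acsf2 and Chad overlap on opposite strands and were both under 8% of their L-iAMPK HFD means.

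**Figure D3:**
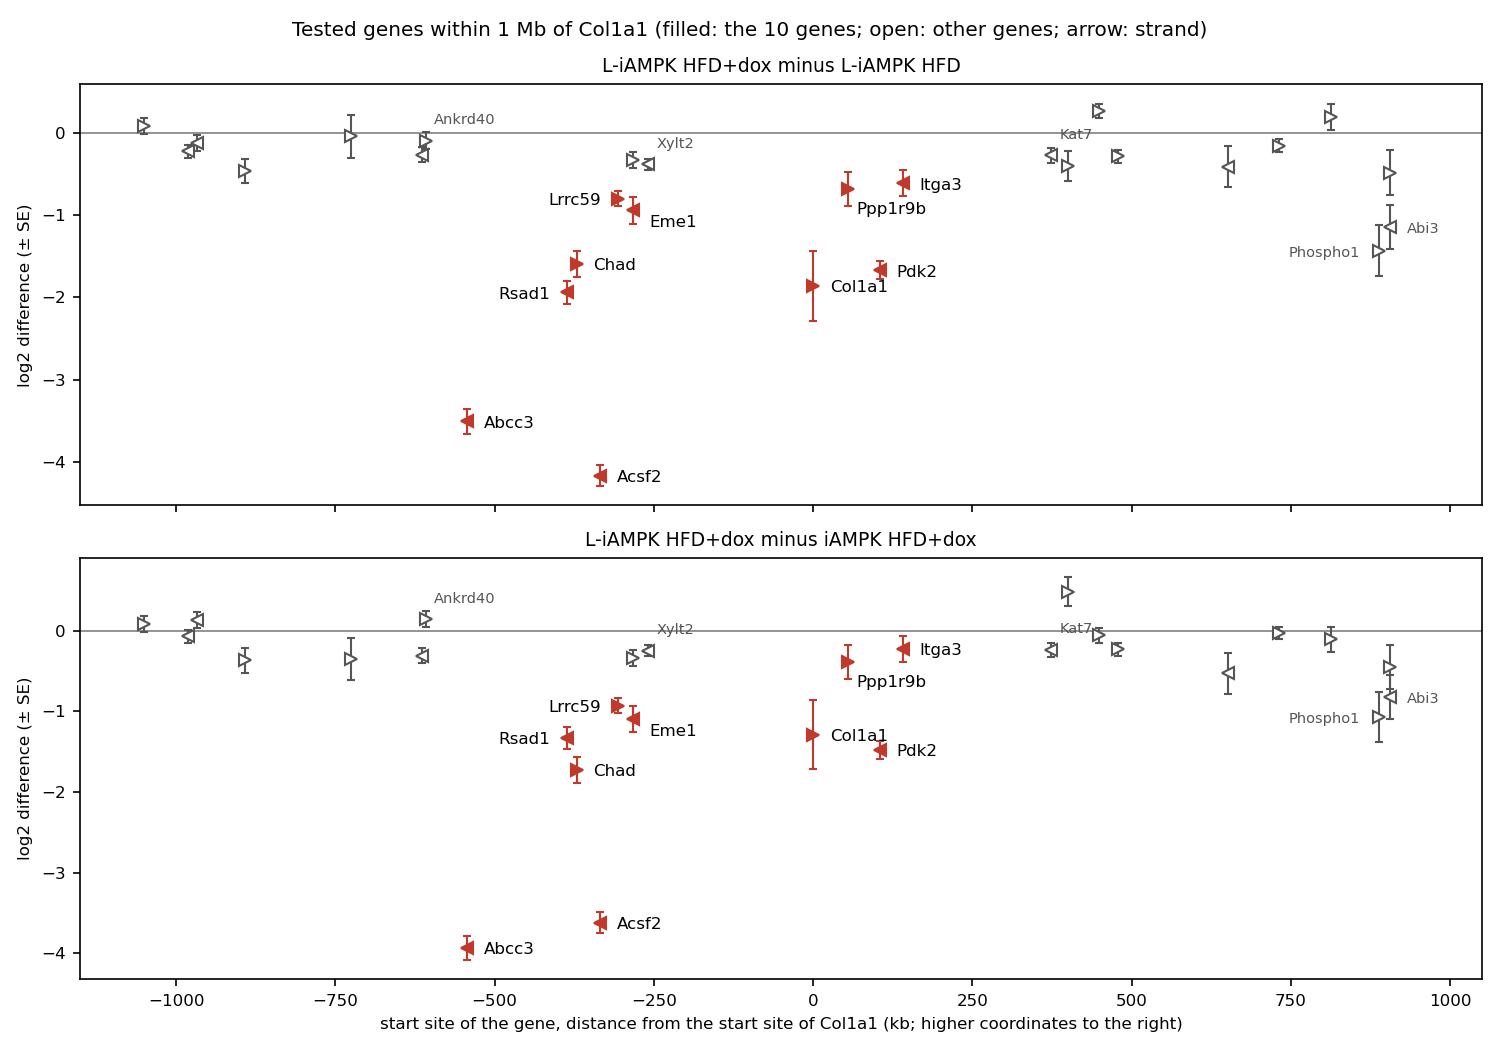
log2 difference ± SE of the tested genes within 1 Mb of Col1a1, against the distance of each start site from that of Col1a1 in kb, for L-iAMPK HFD+dox minus L-iAMPK HFD (top) and L-iAMPK HFD+dox minus iAMPK HFD+dox (bottom). Filled arrows are the 10 genes, open arrows other genes, and the arrow gives the strand. Acsf2 (-4.17) and Abcc3 (-3.51) lie lowest in the top panel, and Ankrd40, beyond Abcc3, lies at -0.09.

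Other genes of the stretch and beyond it were tested. The choice of the named genes was made with values known, and it also set the ends of the stretch. The other genes are therefore what that choice left, and are no unselected set to hold the chosen genes against. The stretch holds 13 further genes, of which 3 had 0 FPKM in every library, 8 were above 0 but under the filter and 2, Mrpl27 and Xylt2, were tested. Mrpl27 encodes a protein of the mitochondrial ribosome, and its start lies 37 bases from that of Eme1 on the other strand. Mrpl27 had 23.5, 20.8 and 19.9 FPKM in L-iAMPK HFD+dox and 26.8, 23.7 and 30.6 FPKM in L-iAMPK HFD, and the groups did not overlap. Xylt2 encodes a xylosyltransferase that starts proteoglycan chains and is the nearest tested gene below Col1a1. Xylt2 had 5.34, 5.47 and 5.22 FPKM in L-iAMPK HFD+dox and 7.26, 6.97 and 7.14 FPKM in L-iAMPK HFD, again without overlap. Both fell for doxycycline in L-iAMPK, where 21.1% of all genes fell, Mrpl27 by 0.33 ± 0.10 (SE) on the log2 scale (limma, adjusted p = 0.0295) and Xylt2 by 0.38 ± 0.07 (adjusted p = 0.00354). Both also fell for genotypes on doxycycline, by 0.34 ± 0.10 (adjusted p = 0.0383) and 0.25 ± 0.07 (adjusted p = 0.0318), where 10.3% of all genes fell. In the interaction 0 of the 2 passed (limma), 2 did at an unadjusted p under 0.05 and 0 with edgeR. The call of Xylt2 for doxycycline in L-iAMPK held in all 21 alternatives, at adjusted p from 0.00255 to 0.0286. That of Mrpl27 ended without L-iAMPK HFD replicate 1 (0.0763) or 3 (0.0779), without L-iAMPK HFD+dox replicate 2 (0.0821) or 3 (0.0983), and on 3 other settings, with adjusted p up to 0.307. For genotypes on doxycycline the call of Mrpl27 ended in 11 of 21 alternatives and that of Xylt2 in 9 of 21, among them leaving out L-iAMPK HFD+dox replicate 2 (0.103 and 0.061) or 3 (0.123 and 0.0925) and iAMPK HFD+dox replicate 2 (0.11 and 0.0922) or 3 (0.0585 and 0.109). The authors' deposited comparisons call neither gene. Between L-iAMPK HFD+dox and L-iAMPK HFD they give Mrpl27 -0.16 (authors' adjusted p = 0.786) and Xylt2 -0.23 (0.326). Between L-iAMPK HFD+dox and iAMPK HFD+dox they give -0.24 (0.548) and -0.17 (0.789).

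Outside the stretch, 27 further genes lay within 1 Mb of Col1a1 and 17 of them were tested. Their median log2 difference was -0.26 for doxycycline in L-iAMPK and -0.23 for genotypes on doxycycline, beside -0.13 and -0.08 over all genes. For doxycycline in L-iAMPK 5 of the 17 fell and 1 rose, where 25.8% of all genes were called. Phospho1, a phosphatase of mineralizing tissue, fell by 1.43 ± 0.31 (SE) on the log2 scale (limma, adjusted p = 0.00959) and did so in all 21 alternatives. Abi3, an actin regulator of immune cells, fell by 1.14 ± 0.27 (adjusted p = 0.0136), which lost its call when L-iAMPK HFD replicate 1 was left out (0.0525). The bodies of Phospho1 and Abi3 overlap on opposite strands. Spag9 (-0.46 ± 0.15), Kat7 (-0.27 ± 0.09), the nearest tested gene above the stretch, and Spop (-0.28 ± 0.08) also fell and Slc35b1 (0.27 ± 0.09) rose, at adjusted p of 0.0456, 0.0397, 0.0297 and 0.0366. Each of those 4 calls ended without L-iAMPK HFD replicate 1, at adjusted p of 0.166, 0.127, 0.0718 and 0.133, and without L-iAMPK HFD+dox replicate 2, at 0.0936, 0.133, 0.0997 and 0.0601. Other single libraries also ended calls of these 4 genes, at adjusted p up to 0.153 for Spag9 (without L-iAMPK HFD replicate 2), 0.107 for Kat7 (without L-iAMPK HFD replicate 2), 0.0761 for Spop (without L-iAMPK HFD replicate 3) and 0.129 for Slc35b1 (without L-iAMPK HFD+dox replicate 1). Slc35b1 was also higher for doxycycline in iAMPK, by 0.27 ± 0.09 without overlap, though not called (limma, adjusted p = 0.799). Its interaction was 0.01 ± 0.12. For genotypes on doxycycline Luc7l3 (-0.31 ± 0.09, adjusted p = 0.0431) and Phospho1 (-1.07 ± 0.31, adjusted p = 0.0427) fell, and both calls ended without any 1 of the L-iAMPK HFD+dox libraries, at adjusted p from 0.0632 to 0.126 for Luc7l3 and from 0.0777 to 0.118 for Phospho1. Phospho1 and Abi3, at the far end of the window, were thus the outer genes with differences past 1 on the log2 scale. The authors' deposited adjusted p for doxycycline in L-iAMPK was under 0.05 for Phospho1, Abi3 and Slc35b1. It was not for Spag9 (0.316), Kat7 (0.846) and Spop. For genotypes on doxycycline the authors' value was 6.88e-05 for Phospho1 and 0.578 for Luc7l3. Immediately beyond Abcc3, 3.8 kb from its end, lies Ankrd40, named here after its values were seen. Ankrd40 had 17.9 to 20.7 FPKM in L-iAMPK HFD+dox and 19.4 to 21.5 FPKM in L-iAMPK HFD, which overlapped, with a log2 difference of -0.09 ± 0.10 (adjusted p = 0.534).

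The 10 genes could be tested where L-iAMPK HFD+dox did not enter. For doxycycline in iAMPK 0 of the 10 passed (limma), 2 did at an unadjusted p under 0.05 (Ppp1r9b and Pdk2) and 0 with edgeR, and over all genes 0.0% were called (786 at an unadjusted p under 0.05, 0 with edgeR). The median log2 difference of the 10 genes was 0.05 and that of all genes 0.02. Acsf2 differed by -0.12 ± 0.13 (SE, adjusted p = 0.899), Abcc3 by 0.04 ± 0.15 (adjusted p = 0.974) and Rsad1 by -0.06 ± 0.14 (adjusted p = 0.956). Chad differed by 0.07 ± 0.16 (adjusted p = 0.956), Pdk2 by -0.29 ± 0.11 (adjusted p = 0.799) and Col1a1 by 0.55 ± 0.43 (adjusted p = 0.872). A difference could be missed at 3 libraries a group (2 of iAMPK HFD+dox with edgeR), and most so for Col1a1 with its wide spread.

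For genotypes without doxycycline (L-iAMPK HFD minus iAMPK HFD) 1 of the 10 genes was called and was higher, where 4.31% of all genes were called and 3.04% were called higher, and the median of the 10 was 0.23 beside 0.08 over all genes. The gene was Ppp1r9b, with 3.79, 3.66 and 2.64 FPKM in L-iAMPK HFD against 1.45, 1.53 and 1.86 FPKM in iAMPK HFD, without overlap. It rose by 0.86 ± 0.21 (SE) on the log2 scale (limma, adjusted p = 0.0435). That call ended without any 1 of the 3 iAMPK HFD libraries (adjusted p of 0.148, 0.0918 and 0.0719 without replicates 1, 2 and 3), without L-iAMPK HFD replicate 1 (0.157) or 2 (0.148), without L-iAMPK HFD+dox replicate 1 (0.0542), 2 (0.0641) or 3 (0.0622), without iAMPK HFD+dox replicate 2 (0.0634), and with edgeR (0.0533). Rsad1 at 0.55 ± 0.14 (adjusted p = 0.052) and Acsf2 at 0.43 ± 0.13 (adjusted p = 0.0815) were also higher in every L-iAMPK HFD library than in any iAMPK HFD library, as 23.3% of all genes were, without passing the threshold. Rsad1 passed it without iAMPK HFD+dox replicate 1 (0.0347) and without L-iAMPK HFD+dox replicate 2 (0.0486). Abcc3 differed in the opposite direction, by -0.39 ± 0.15 (adjusted p = 0.142), and was lower in every L-iAMPK HFD library than in any iAMPK HFD library, as 6.8% of all genes were. The high Ppp1r9b of L-iAMPK HFD was therefore also the level against which L-iAMPK HFD+dox was set for doxycycline in L-iAMPK.

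**Figure D4:**
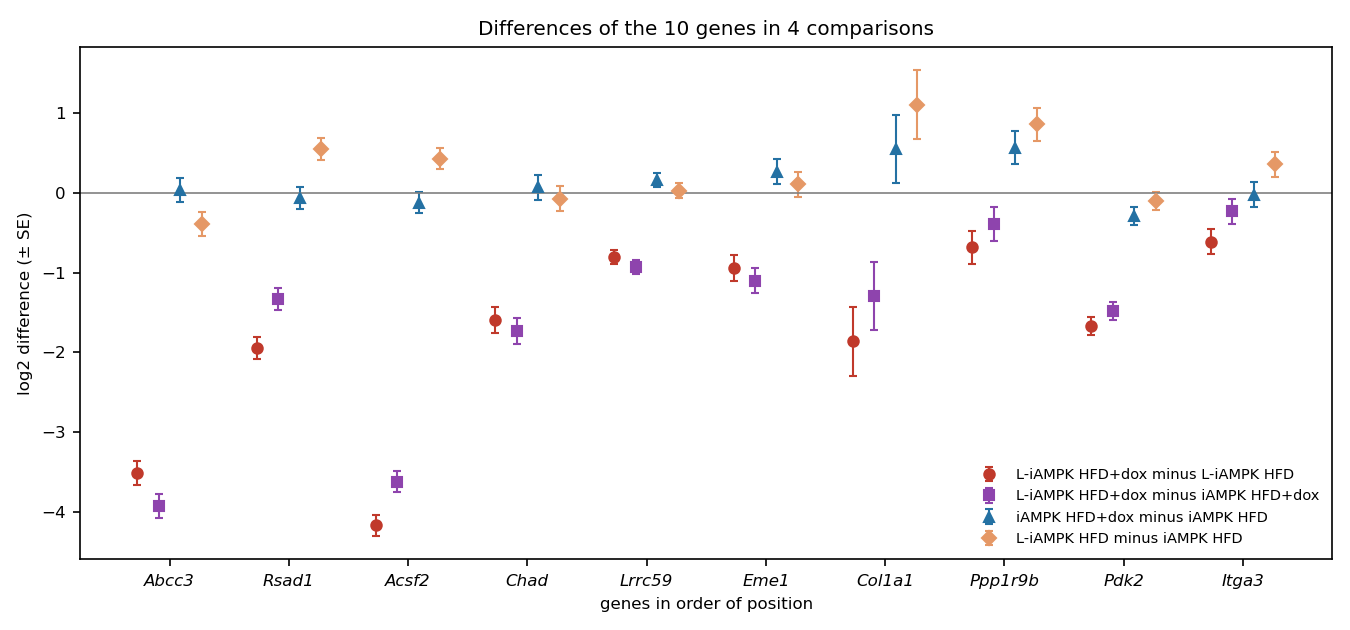
log2 difference ± SE of the 10 genes, in order of position, in 4 comparisons. The comparisons with L-iAMPK HFD+dox lie below 0 for all 10 genes, from -4.17 for Acsf2 to -0.23 for Itga3, while iAMPK HFD+dox minus iAMPK HFD lies between -0.29 (Pdk2) and 0.57 (Ppp1r9b).

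Genes that share the roles of the 10 genes were counted for doxycycline in L-iAMPK, beside the 21.1% of all genes that fell and the 4.76% that rose. Among 18 tested partners of Col1a1 in collagen making, 15 fell and 1 rose, with a median log2 difference of -0.87. Serpinh1, a collagen chaperone, fell to 2.95 ± 0.393 FPKM in L-iAMPK HFD+dox, against 8.73 ± 2.01 in L-iAMPK HFD (SD, n = 3 each; limma, adjusted p = 0.00395), and Sparc, a matrix protein that binds collagen, fell to 14.9 ± 0.299 against 34.9 ± 8.26 FPKM (adjusted p = 0.00643). Bmp1, a protease that trims procollagen, rose to 40.3 ± 1.44 FPKM in L-iAMPK HFD+dox, against 29.1 ± 1.23 in L-iAMPK HFD (adjusted p = 0.00273). The 15 became 4 without L-iAMPK HFD replicate 1 or 2 and 9 without L-iAMPK HFD+dox replicate 1 or 2. Between genotypes on doxycycline, where 10.3% of all genes fell, 5 of the 18 fell, 1 rose and 12 were not called, with a median of -0.65, and the 5 became 1 without any 1 of the L-iAMPK HFD+dox libraries and without iAMPK HFD+dox replicate 2 or 3, 11 without its replicate 1, and 2 or 3 on leaving out iAMPK HFD replicate 1 or 3, or replicate 1 or 2 of L-iAMPK HFD. Of 9 tested small leucine-rich matrix proteins related to Chad, 6 fell and 0 rose, with a median of -0.77, and Bgn, biglycan, fell by 0.91 ± 0.19 (SE; adjusted p = 0.007). Of the same 9, 1 fell for genotypes on doxycycline, with a median of -0.29, and the 1 became 4 without iAMPK HFD+dox replicate 1 and 3 without L-iAMPK HFD replicate 3. The 2 lists contain 4 of the stellate markers above (Col1a2, Col3a1, Dcn and Lum), and the part of those cells was not tested.

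In the lists of the metabolic genes the counts were smaller. Of 9 tested ABC exporters and related transporters, 2 rose and 3 fell. The bile salt export pump Abcb11 rose to 117 ± 1.55 FPKM in L-iAMPK HFD+dox, against 80.9 ± 5.9 in L-iAMPK HFD (SD, n = 3 each; limma, adjusted p = 0.000996), and its levels were 121 ± 5.74 FPKM in iAMPK HFD+dox and 117 ± 7.39 FPKM in iAMPK HFD. The 3 that fell became 1 without L-iAMPK HFD replicate 1 or 2 and without L-iAMPK HFD+dox replicate 2 or 3. Of 15 tested acyl-CoA synthetases, 4 fell and 0 rose, with a median of -0.27. Acsf3, the mitochondrial relative of Acsf2, fell by 0.64 ± 0.08 on the log2 scale (SE; adjusted p = 0.000662), and Slc27a1, a fatty acid transporter, fell by 0.99 ± 0.13 (adjusted p = 0.000719). Of 8 tested genes of the pyruvate dehydrogenase complex and its other kinases and phosphatases, 1 rose, 0 fell and the median was -0.01. That gene was Pdhb, a subunit of the complex, which rose by 0.26 ± 0.08 (adjusted p = 0.038) and lost the call without L-iAMPK HFD replicate 1 (0.116) or 2 (0.112), without L-iAMPK HFD+dox replicate 1 (0.128) or 2 (0.0821), without iAMPK HFD replicate 1 (0.0509) or 2 (0.0521) and without iAMPK HFD+dox replicate 2 (0.0531). Of 11 tested integrins and partners of Itga3, 5 fell and 0 rose, among them Itga9 by 0.75 ± 0.15 (adjusted p = 0.00596), with a median of -0.33, and the 5 became 2 with median-ratio scaling and with edgeR. None of the 11 was called for genotypes on doxycycline (0 with limma, 4 at an unadjusted p under 0.05, 0 with edgeR), with a median of 0.04. Of 7 tested nucleases related to Eme1, 1 rose and 0 fell, and of 4 protein phosphatase 1 genes 0 passed with limma, 0 at an unadjusted p under 0.05 and 0 with edgeR. Eme2, which pairs with Mus81 as Eme1 does, rose by 0.51 ± 0.13 (adjusted p = 0.0151), which was lost without L-iAMPK HFD replicate 2 (0.0555) and without L-iAMPK HFD+dox replicate 1 (0.0556) or 3 (0.0542). Between genotypes on doxycycline 2 ABC exporters fell and 1 rose, 2 acyl-CoA synthetases fell, 2 genes of the pyruvate dehydrogenase list rose, 1 nuclease rose and 0 of the 4 protein phosphatase 1 genes were called (0 at an unadjusted p under 0.05, 0 with edgeR). Leaving out a library gave 0 to 3 falls for the ABC exporters and 0 to 3 for the acyl-CoA synthetases, and the nuclease call was lost without L-iAMPK HFD+dox replicate 1 or 3.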

How the data were processed

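Flash-frozen liver gave the RNA (Zymo Quick-RNA MiniPrep), which was sequenced from TruSeq stranded-mRNA libraries, per the labels' protocols. The submitters' processing notes name FastQC, STAR 2.4.0k, HOMER, edgeR 3.6.8 and mm10, without a role or order. FPKM values were deposited for each gene and library with 0.5 added, which was subtracted. A second deposited table holds scaled tags per gene, a signal per the file headers, and the authors' log2 fold changes and adjusted p-values. In that table the coordinates of 1188 of 24453 genes, 8 of the 10 genes among them, lie on another chromosome or over 1 Mb from those of the FPKM table, while the annotation and values match by symbol. Positions were therefore taken from the FPKM table and the second table was matched by symbol.

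Genes with at least 0.5 FPKM in at least 3 libraries (12614) were fitted as log2(FPKM + 0.5) with limma 3.58.1 (R 4.3.3; 4 group means, trend, robust step). Scaled tags were whole reads, within 0.02, for 100% of values in 11 libraries (not claimed for iAMPK HFD+dox replicate 2). On those 11 libraries edgeR 4.0.16 called 2992 of 13773 genes for doxycycline in L-iAMPK. Its results with iAMPK HFD+dox thus rest on 2 libraries of that group. The lowest chi-square per degree of freedom between replicates was 7.53, above sampling noise. It was that of L-iAMPK HFD replicates 1 and 2, which were more alike than any other pair (18.1 to 53.5). Against replicate 3 of their group they gave 52.4 and 52.2. The fit was tested on simulated data. Alternatives were median-ratio scaling, pseudocounts 0.1 and 1, no filter, a filter at 2 FPKM, no trend or robust step, a replicate block, only the compared libraries, edgeR, and leaving out each library. Median-ratio scaling moved the median of all genes by 0.123 (log2) for doxycycline in L-iAMPK and 0.143 for the interaction.

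The 10 genes and all lists were chosen with earlier results of these data known. Named neighbours were those called in a comparison with L-iAMPK HFD+dox and the nearest tested gene on either side. In each role list up to 4 genes with the smallest p could be named. Exons were compared with GENCODE vM21, of the same build.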

Additional observations from a re-analysis of the deposited data

Results flagged for a closer look

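Spop, an adaptor of a ubiquitin ligase that lies 461.0 kb above Col1a1, was flagged by a test of the interaction of genotype and doxycycline. That interaction was called for 13.2% of all genes tested, and for 1 of the 17 outer genes tested, so Spop is not particular in this. The effect of doxycycline on Spop in L-iAMPK minus that in iAMPK was -0.41 ± 0.12 (SE, log2, limma, adjusted p = 0.0388). The call ended in 11 of 20 alternatives, with adjusted p from 0.0243 to 0.263 over all of them.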

How the results depend on the processing

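All 208 values of the 10 genes computed under alternatives for doxycycline in L-iAMPK, 208 for genotypes on doxycycline and 198 for the interaction kept their negative sign. For doxycycline in iAMPK 0 of the 10 genes were called under every alternative run. For genotypes without doxycycline the 1 gene called became 2 with a pseudocount of 1 and 0 with no filter, the replicate block and edgeR, and 0 to 2 on leaving out a library. Mrpl27 and Xylt2, both called for doxycycline in L-iAMPK, became 1 with median-ratio scaling, only the compared libraries and edgeR, and 1 to 2 on leaving out a library. Another gene of the stretch, Samd14, was called in that comparison with edgeR and with no filter. For genotypes on doxycycline they became 0 with median-ratio scaling, the replicate block and edgeR, 1 with no filter, no trend or robust step and only the compared libraries, and 0 to 2 on leaving out a library. With edgeR Samd14 was the 1 called for genotypes on doxycycline. For the interaction neither was called except Xylt2 without iAMPK HFD+dox replicate 1 (0 to 1 on leaving out a library), and the 1 gene called with no filter was Samd14. The 6 outer genes called for doxycycline in L-iAMPK became 3 with median-ratio scaling and with edgeR, and 1 to 6 on leaving out a library. The 2 called for genotypes on doxycycline became 1 with median-ratio scaling and with no trend or robust step, 0 with no filter, the replicate block and edgeR, and 0 to 4 on leaving out a library. The 1 called in the interaction became 0 with median-ratio scaling, no filter and edgeR, and 0 to 6 on leaving out a library. The cause of these moves was not tested. Over all genes, edgeR called 1083 for genotypes on doxycycline (main 1882), 736 for the interaction (1663) and 358 for genotypes without doxycycline (544), which became 300 with only the compared libraries. Leaving out a library gave 1871 to 3743 for doxycycline in L-iAMPK (3259), 907 to 2445, 528 to 2801 and 37 to 1438. Deviations of same-numbered libraries correlated at r from -0.28 to 0.45, over 0.1 in 8 of 18 pairs. Libraries correlated best with their own number in 8 of 18 combinations. The highest r was that of replicate 1 of iAMPK HFD and of iAMPK HFD+dox. Whether the numbers pair the libraries cannot be told from these mixed values. The replicate block ended the call of Ppp1r9b for genotypes without doxycycline (limma, adjusted p = 0.0559). Depth limits Chad most, at 10 reads over the 3 L-iAMPK HFD+dox libraries.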

Other observations

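Among the genes of the stretch that were under the filter, Cacna1g and Samd14 are named here after their values were seen. Cacna1g, a calcium channel gene between Abcc3 and Rsad1, had 0, 2 and 0 reads in the 3 L-iAMPK HFD+dox libraries, 7, 14 and 5 reads in L-iAMPK HFD, 2 and 9 in the 2 iAMPK HFD+dox libraries with recovered reads and 5, 8 and 6 in iAMPK HFD. Samd14, whose end lies 171 bases from that of Pdk2 on the other strand, had 14, 9 and 7 reads in L-iAMPK HFD+dox, 37, 46 and 32 reads in L-iAMPK HFD, 28 and 20 in iAMPK HFD+dox and 24, 36 and 19 in iAMPK HFD. For Samd14 the L-iAMPK HFD+dox libraries were below all others with recovered reads, and edgeR on those reads gave a log2 difference of -1.78 for doxycycline in L-iAMPK and -1.54 for genotypes on doxycycline, both at an adjusted p under 0.05. Sgca, the gene next to Col1a1 on the side of higher coordinates, had 4 reads over the 3 L-iAMPK HFD+dox libraries and 0 over the 3 L-iAMPK HFD libraries, too few to compare. Between Eme1 and Col1a1, Mrpl27 and Xylt2 were the tested genes, and 0.38 was the larger of their falls on the log2 scale, beside 0.94 for Eme1, whose start is 37 bases from that of Mrpl27.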
